A study of Mus musculus with 14 samples.

Results

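Polycomb repressive complex 2 (PRC2) was followed in paused mouse embryonic stem cells through the mRNAs of 8 subunits, Ezh1, Ezh2, Eed, Suz12, Jarid2, Mtf2, Rbbp4 and Rbbp7, chosen by gene symbol from the 36335 named genes of the deposited count tables. PRC2 places methyl groups on lysine 27 of histone H3, a mark of repressed chromatin. Ezh2 or its paralog Ezh1 is the catalytic subunit, Eed and Suz12 complete the core, and Rbbp4 or Rbbp7 binds histones. Jarid2 and Mtf2 are accessory subunits that belong to different forms of the complex and help to bring it to its targets, and in embryonic stem cells PRC2 is known for holding developmental genes silent.

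All cells were of the E14 line and spent 2 weeks in the mTOR kinase inhibitor INK128 at 200 nM, which puts embryonic stem cells into a paused state resembling diapause. Mettl3-KO cells, which lack the catalytic subunit of the enzyme that writes m6A on mRNA, gave 8 libraries, 2 at each chase time, and WT cells gave 6, namely 1 each for 0 h and 3 h and 2 each for 1 h and 8 h. New RNA was labelled for 12 h with 100 µM S4U, a thiolated uridine that reads as C after iodoacetamide, with medium exchanged every 3 h, and cells were collected 0, 1, 3 and 8 h after S4U was removed. For each gene and library the tables give a total count and a count of T-to-C conversions, here called labelled RNA. The sources used here do not say whether the Mettl3-KO cells are 1 clone or several, nor whether replicates came from different cultures. Every p-value therefore refers to the spread among these libraries, part of which may be technical. The source field of the Mettl3-KO libraries at 8 h reads E15 and E16, while their cell line field reads E14.

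Total counts ran between 6108570 and 26656352 in 12 libraries, with only 602485 in Mettl3-KO 3 h replicate 2 and 49159 in WT 1 h replicate 2. These 2 shallow libraries also held a labelled share of 6.90% and 8.43% of all counts, where their group's deeper library held 18.5% and 30.8%, so results are given over 14 libraries and over the 12 deeper ones. Mettl3 itself had between 1.23 and 2.42 CPM (each count scaled to a library total of 1e+06) in the 7 deeper Mettl3-KO libraries and between 23.8 and 78.1 CPM in the 5 deeper WT libraries. The 8 embryonic stem cell markers summed to between 3171 and 4544 CPM in deeper Mettl3-KO libraries and to between 3915 and 5180 CPM in WT ones. The 7 neural markers summed to between 487 and 753 CPM in Mettl3-KO, against 79.9 to 104 CPM in WT. Only 2 of them exceeded 10 CPM in every deeper library of each genotype. Sox1, of the same list, went the other way, with a median of 6.03 CPM in Mettl3-KO and 47.2 CPM in WT. The sum is thus no common rise of the list. Primitive endoderm markers summed to between 32.1 and 47.5 CPM, against 146 to 197 CPM. The part of these markers in the results on PRC2 genes was not tested. In bulk RNA fewer cells of a type cannot be told apart from less RNA per cell.

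Total RNA of 3 PRC2 subunits differed between genotypes once the shallow libraries were left out, in both directions. Over the 12 deeper libraries Ezh1 rose in Mettl3-KO cells by 0.99 on the log2 scale, and Eed and Ezh2 fell by 0.63 and 0.45. The other 5 subunits did not pass the threshold of an edgeR adjusted p of 0.05. Of the 8 members, 1 was called higher, beside 21.9% of 14579 tested genes, and 2 were called lower, beside 19.3%, so that 3 of 8 were called in all, beside 41.2% of genes, a share near the background. Over all 14 libraries edgeR called 0 of 8, beside 22.1% of 14641 genes, with Eed and Mtf2 at an unadjusted p under 0.05. DESeq2 called 1 member, Eed, for which no share of all genes is given here to set beside it.

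**Figure D1:**
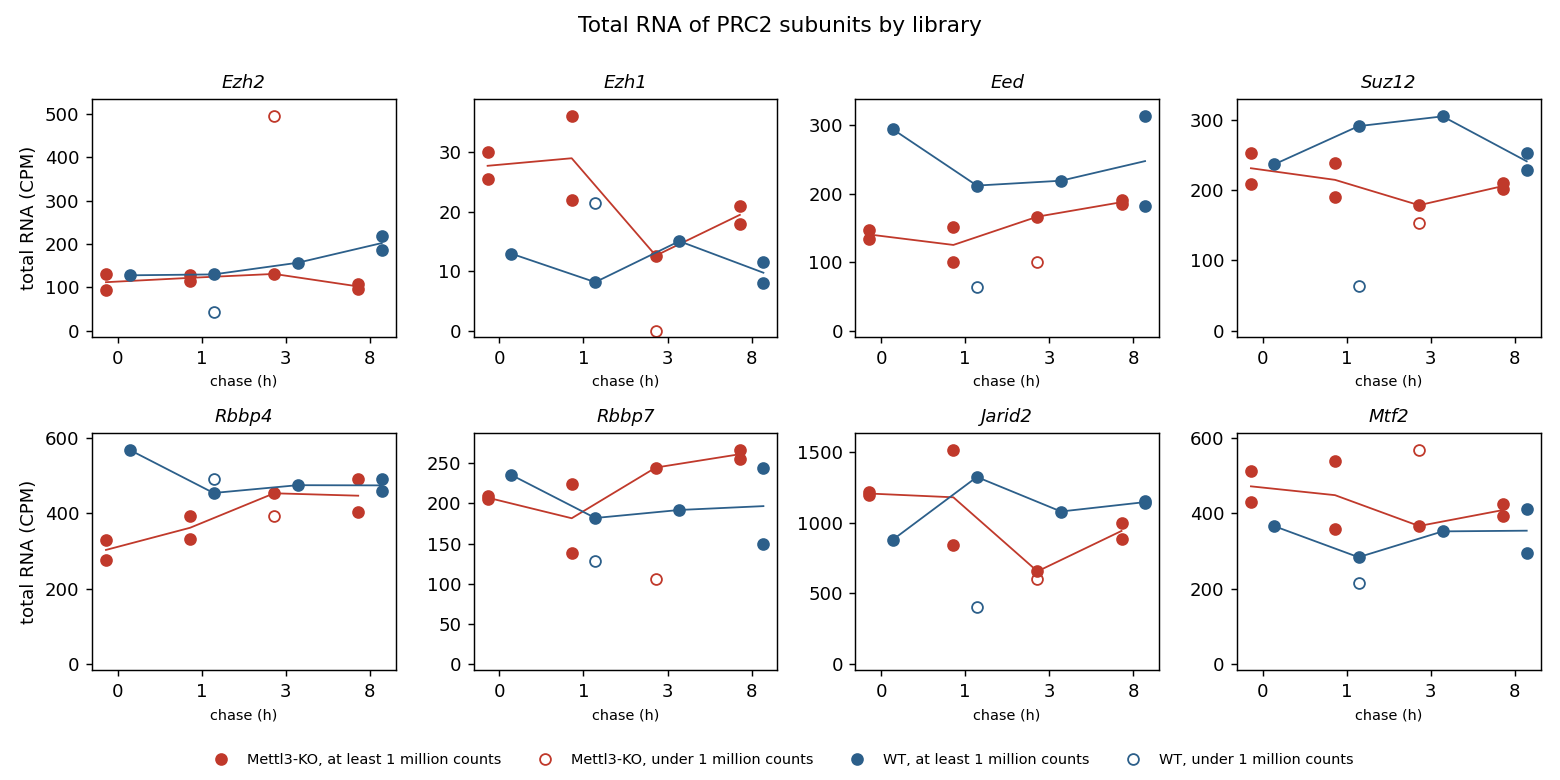
Total RNA of each PRC2 subunit in CPM (vertical axes, each from 0) by chase time in hours, with Mettl3-KO in red at the left and WT in blue at the right of each time. Points are libraries, hollow for the 2 shallow libraries, and lines join means of the deeper libraries. Ezh2 reaches 495 CPM in the shallow Mettl3-KO library at 3 h, and in the deeper libraries Eed lies lower in Mettl3-KO than in WT at 0, 1 and 3 h.

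The windows around the starts of the 3 genes called in the deeper libraries are shown because they are the members whose level differed. Each covers 250 bases before to 50 bases after an annotated start in RefSeq (GRCm38.p6, the assembly of mm10), and all 8 members were found there, with 10 windows in all. The Ezh2 window is set at a start inside the outer edge of the gene, which RefSeq places at base 47595270, and which start these cells use was not tested. Capitals mark 2 motifs searched on both strands, the CCAAT box and an E2F-type site, taken as TTTCCCGC or TTTCGCGC or TTTGCCGC or TTTGGCGC. All 3 genes lie on the minus strand, at chr6:47594981-47595280, chr11:101226414-101226713 and chr7:89980927-89981226, and read 5′ to 3′:
Ezh2: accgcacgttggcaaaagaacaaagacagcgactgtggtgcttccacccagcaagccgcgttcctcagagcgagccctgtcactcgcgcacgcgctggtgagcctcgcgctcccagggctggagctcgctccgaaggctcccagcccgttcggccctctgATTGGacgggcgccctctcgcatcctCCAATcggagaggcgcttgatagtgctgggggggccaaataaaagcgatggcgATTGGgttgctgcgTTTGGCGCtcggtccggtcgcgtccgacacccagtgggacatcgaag
Ezh1: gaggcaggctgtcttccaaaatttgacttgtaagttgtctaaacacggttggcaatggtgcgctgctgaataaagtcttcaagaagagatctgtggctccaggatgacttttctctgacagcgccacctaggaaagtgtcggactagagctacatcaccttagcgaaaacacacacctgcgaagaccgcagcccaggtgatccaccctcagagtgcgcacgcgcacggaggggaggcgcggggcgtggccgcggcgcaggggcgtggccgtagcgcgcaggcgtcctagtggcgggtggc
Eed: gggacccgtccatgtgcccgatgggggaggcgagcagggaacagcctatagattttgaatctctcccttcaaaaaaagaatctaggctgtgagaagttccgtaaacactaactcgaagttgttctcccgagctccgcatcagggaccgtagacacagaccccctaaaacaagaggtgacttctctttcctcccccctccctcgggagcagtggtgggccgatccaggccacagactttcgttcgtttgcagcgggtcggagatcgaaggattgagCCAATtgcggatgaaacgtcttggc

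The Ezh2 window held 1 E2F-type site, at bases 254 to 261, and 3 CCAAT boxes, and no match overlapped another. The Eed window held 1 CCAAT box, at bases 276 to 280, and the Ezh1 window held neither motif. Among the windows not printed, that of Suz12 held 1 E2F-type site. Thus 2 of 10 member windows held an E2F-type site, which 2.26% of all 32851 windows of the same length hold, and 8 of 10 held a CCAAT box, which 37.4% hold. CG pairs numbered 31 at Ezh2, 23 at Ezh1, 17 at Eed and 41 at Suz12, against a median of 7 over all windows. Every E2F-type string searched holds a CG pair, so the share over all windows is no like-for-like background for it. Jarid2 and Mtf2 each enter with more than 1 window. A match is a string of letters and not a measured binding site.

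Ezh2, the main catalytic subunit of dividing cells, had 130.3 and 93.2 CPM at 0 h, 115 and 128 CPM at 1 h, 131 CPM and the 495 CPM of the shallow library at 3 h, and 108 and 95.9 CPM at 8 h in Mettl3-KO cells. In WT cells it had 128 CPM at 0 h, 129.7 CPM and the 42.7 CPM of the shallow library at 1 h, 157 CPM at 3 h, and 186 and 218 CPM at 8 h. The genotypes overlapped at 0 h, both Mettl3-KO libraries lay just under the deeper WT library at 1 h, and both Mettl3-KO libraries at 8 h were below both WT libraries. Ezh2 fell by 0.45 on the log2 scale in Mettl3-KO over the deeper libraries (SE 0.17, edgeR adjusted p = 0.047). That call held in 4 of 12 fits that left out 1 more library, with differences between -0.58 and -0.37 and adjusted p between 0.0171 and 0.131 from edgeR. It was lost without Mettl3-KO 0 h replicate 2, Mettl3-KO 1 h replicate 1, either deeper library at 3 h or any library at 8 h. Over 14 libraries the difference was -0.10 (SE 0.35, edgeR adjusted p = 0.89).

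The shallow Mettl3-KO library at 3 h carried 168 Ezh2 counts, of which 1 was labelled. Its Ezh2 level was 3.78 times the highest other Mettl3-KO library, which 14% of 4413 genes with at least 50 CPM on average in Mettl3-KO equalled or passed. Mtf2 in the same library was 1.06 times the highest other, and the other 5 members at that level stood at 0.397 to 0.800 times it. Ezh1 had no count there.

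Ezh1, the paralog that prevails in cells that do not divide, had 25.45 and 29.9 CPM at 0 h, 21.9 and 36.0 CPM at 1 h, 12.6 CPM at 3 h, and 18.0 and 20.9 CPM at 8 h in deeper Mettl3-KO libraries. In deeper WT libraries it had 12.9 CPM at 0 h, 8.13 CPM at 1 h, 15.03 CPM at 3 h, and 7.94 and 11.5 CPM at 8 h. Mettl3-KO libraries were above WT at 0, 1 and 8 h, while the Mettl3-KO library at 3 h lay within the range of WT. The difference was 0.99 on the log2 scale over the deeper libraries (SE 0.27, edgeR adjusted p = 0.00624) and stayed past the threshold in 12 of 12 fits that left out 1 more, with adjusted p up to 0.0389 from edgeR. Over 14 libraries it was 0.74 (SE 0.42, edgeR adjusted p = 0.238), and without Mettl3-KO 3 h replicate 2 it was 0.96 (edgeR adjusted p = 0.00889). The shallow WT library at 1 h held a single Ezh1 count.

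Eed, the subunit that reads trimethylated lysine 27 and stimulates the enzyme, had 147 and 134 CPM at 0 h, 151 and 99.6 CPM at 1 h, 166 and, in the shallow library, 100.1 CPM at 3 h, and 191 and 184 CPM at 8 h in Mettl3-KO cells. In WT cells it had 294 CPM at 0 h, 212 and, in the shallow library, 64.1 CPM at 1 h, 219 CPM at 3 h, and 313 and 182 CPM at 8 h. In the deeper libraries Mettl3-KO was below WT at 0, 1 and 3 h, and at 8 h WT replicate 2 was just under both Mettl3-KO libraries. Eed fell by 0.63 on the log2 scale over the deeper libraries (SE 0.17, edgeR adjusted p = 0.00713), and the call held in 12 of 12 fits that left out 1 more, with adjusted p up to 0.042 from edgeR. Over 14 libraries the difference was -0.58 (SE 0.24, edgeR adjusted p = 0.1), and DESeq2 gave an adjusted p of 0.014. Leaving out 1 shallow library alone gave an edgeR adjusted p of 0.0323 (that of Mettl3-KO) or 0.0205 (that of WT).

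Suz12, which scaffolds the core, averaged 212 ± 26.3 CPM in Mettl3-KO and 263 ± 33.5 CPM in WT (SD, n = 7 and 5 deeper libraries), a difference of -0.32 (SE 0.15, edgeR adjusted p = 0.101). At 1 h the Mettl3-KO libraries had 190.1 and 239 CPM, against 291 CPM in WT, and at 3 h Mettl3-KO had 178 CPM against 305 CPM. At 0 h Mettl3-KO had 253 and 209 CPM around the 237 CPM of WT. Suz12 was called in 2 of 12 fits that left out 1 more library.

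The histone chaperones Rbbp4 and Rbbp7, which PRC2 shares with other chromatin complexes, went opposite ways in sign and neither was called. Rbbp4 averaged 382 ± 74.9 CPM in Mettl3-KO and 489 ± 46.6 CPM in WT (SD, n = 7 and 5), a difference of -0.33 (SE 0.16, edgeR adjusted p = 0.11). Its Mettl3-KO levels were 277 and 328 CPM at 0 h, against 568.2 CPM in WT, and 403 and 489.8 CPM at 8 h, against 489.6 and 458 CPM. Rbbp7 averaged 221 ± 42.9 CPM in Mettl3-KO and 200.4 ± 39.4 CPM in WT (SD, n = 7 and 5), a difference of 0.17 (SE 0.17, edgeR adjusted p = 0.454).

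Of the accessory subunits, Jarid2, which binds nucleosomes and is itself methylated by PRC2, averaged 1043 ± 286 CPM in Mettl3-KO and 1114 ± 159 CPM in WT (SD, n = 7 and 5). Its difference was -0.15 (SE 0.19, edgeR adjusted p = 0.539), and Mettl3-KO replicates at 1 h alone spanned 843 to 1514 CPM. Mtf2, a Polycomb-like protein that binds CG-rich DNA, averaged 432 ± 69.2 CPM in Mettl3-KO and 342 ± 52.8 CPM in WT (SD, n = 7 and 5). Its difference was 0.34 (SE 0.17, edgeR adjusted p = 0.117). A missed threshold does not show that these 5 subunits had equal levels.

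For 0 of 8 members did the deeper libraries of the genotypes separate without overlap, beside 23.2% of 14641 genes. Ordered by median, the deeper Mettl3-KO libraries lay above WT for Ezh1, Rbbp7 and Mtf2 and below WT for the other 5. Across the 12 deeper libraries log2 levels of Ezh1 and Eed had a Pearson r of -0.821 and those of Ezh1 and Mtf2 one of 0.737, which describes libraries that share genotype and chase time. By the same measure over 9156 genes, Xrn1 (r = 0.948), Nbeal1 (r = 0.931) and Prkdc (r = 0.911) were most like Ezh2. Most like Ezh1 were Nectin3 (r = 0.925), Klf2 (r = 0.918) and Hemk1 (r = 0.916), and most like Eed were Smu1 (r = 0.971), Trim6 (r = 0.968) and Dusp6 (r = 0.932). The closest gene to Suz12 was Ski (r = 0.932), to Rbbp4 Ddx39a (r = 0.936), to Rbbp7 Psmg1 (r = 0.951), to Jarid2 Armcx4 (r = 0.888) and to Mtf2 Plekha5 (r = 0.947).

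**Figure D2:**
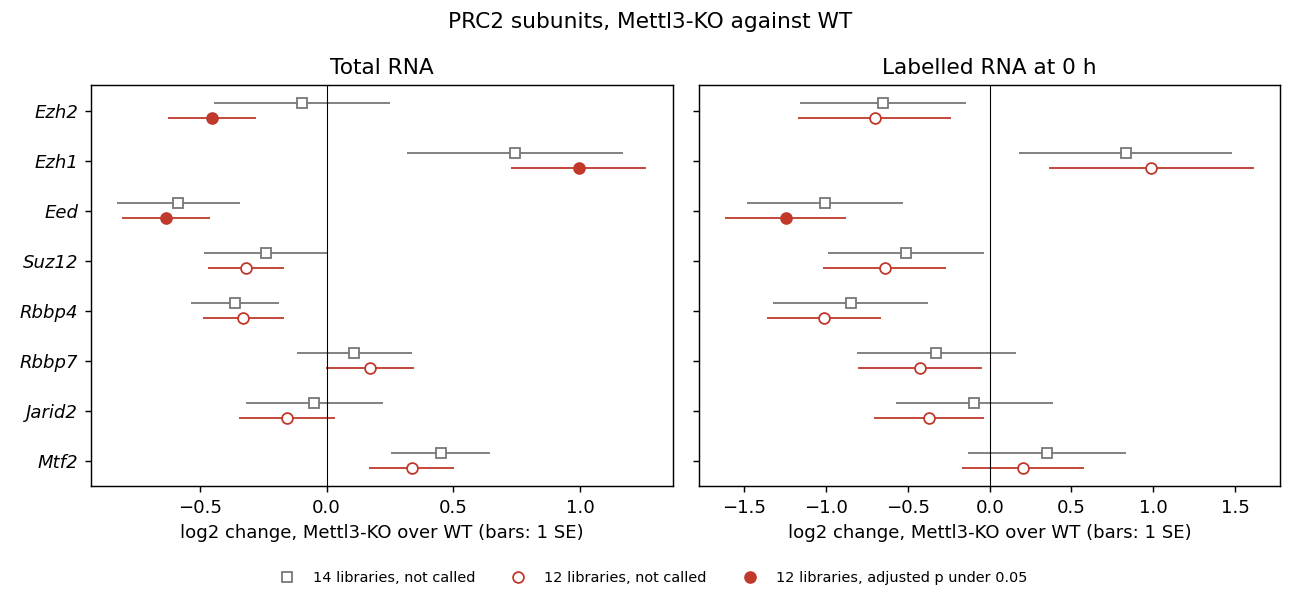
Log2 change in Mettl3-KO over WT of total RNA (left) and of labelled RNA at 0 h (right) for each subunit, with bars of 1 SE, from edgeR fits over 14 libraries (grey squares) and the 12 deeper ones (red circles). Labelled RNA at 0 h is the value of a line fitted over all chase times, not the measured level. Filled marks have an adjusted p under 0.05. Ezh1 at 0.99 and Eed at -0.63 in total RNA stand farthest from 0, and Eed at -1.25 is the only filled mark for labelled RNA.

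No subunit had a called change of total RNA over the 8 h chase. Of the 8 members, edgeR called 0 for a genotype difference in slope, beside 0% of genes over 14 libraries, where 728 genes had an unadjusted p under 0.05. For the same comparison 201 genes and no member were called by DESeq2. Over the deeper libraries edgeR again called 0, beside 0.549% of genes. Ezh2 was the 1 member there with an unadjusted p under 0.05. Its slope was -0.03 per hour in Mettl3-KO (SE 0.03) and 0.09 per hour in WT (SE 0.03) on the log2 scale, a difference of -0.11 (SE 0.04, edgeR adjusted p = 0.167). Taken by genotype, 0 members were called for a slope in Mettl3-KO, beside 4.38% of genes, and 0 in WT, beside 0% of genes. At an unadjusted p under 0.05 there was 1 member in each genotype, Rbbp4 in Mettl3-KO (0.06 per hour) and Ezh2 in WT.

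Fitted values at 0 h, the end of the labelling pulse, come from a line over all chase times and can depart from measured levels. Measured labelled RNA of Ezh2 at 0 h was 26.8 and 27.5 CPM in Mettl3-KO, against 64.8 CPM in WT. That of Jarid2 was 462.5 and 469.7 CPM, against 478 CPM. In the fit, most genes held less labelled RNA relative to total RNA in Mettl3-KO. The median log2 difference was -0.40 over 12669 tested genes in the deeper libraries. Of the 8 subunits, 6 had a difference below 0. Eed fell most of the 8, by 1.25 on the log2 scale (SE 0.37, edgeR adjusted p = 0.0195), and was the 1 member called, beside 10.1% of genes. Rbbp4 had a difference of -1.01 (SE 0.35, edgeR adjusted p = 0.0511), Ezh2 of -0.70 (SE 0.47, edgeR adjusted p = 0.383) and Suz12 of -0.64 (SE 0.38, edgeR adjusted p = 0.308). Rbbp7 and Jarid2 had -0.43 and -0.37, near the median of all genes. Ezh1 at 0.99 (SE 0.63) and Mtf2 at 0.20 (SE 0.37) were the 2 members above 0, with edgeR adjusted p of 0.357 and 0.799. Over 14 libraries edgeR called 0 of 8, beside 7.84% of genes, with Eed at -1.005 (SE 0.48, edgeR adjusted p = 0.202) and the 1 member with an unadjusted p under 0.05.

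These values join how much of a gene's RNA there was with how much of it was labelled. With the total count of the same gene as offset, edgeR called 0 of 8 members over 12 libraries, beside 0.071% of genes, and 0 over 14, beside 0.00789%, with 0 members at an unadjusted p under 0.05 in either. Over 12 libraries the member differences in labelled share, again fitted at 0 h from all chase times, were lowest for Ezh2 and highest for Ezh1. They were -0.63 for Ezh2 (SE 0.39, edgeR adjusted p = 0.563) and -0.26 for Ezh1 (SE 0.53, edgeR adjusted p = 0.817). The median over all genes was -0.44.

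The labelled share of Ezh2 at 0 h was 20.6% and 29.5% in Mettl3-KO cells, against 50.8% in WT cells. The Mettl3-KO shares were below the median gene of their own libraries, at 30.9% and 31.5%, while the WT share was above the median of 46.3%. The ratio of Mettl3-KO to WT share was 0.493 for Ezh2, and 3.23% of 7650 genes with at least 200 counts in each of these libraries had a lower one, around a median of 0.678. Since WT has 1 library at 0 h, this ratio has no replicate check on the WT side, where the 95% Wilson interval of the Ezh2 share covers 48.8% to 52.8%, for counting error only.

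The other 7 members were above the median gene of both Mettl3-KO libraries, and all but Ezh1 were above it in WT. Eed had 41.2% and 40.6% labelled in Mettl3-KO and 61.2% in WT, and Rbbp7 had 41.5% and 46.6% in Mettl3-KO and 60.2% in WT. Ezh1 had 38.8% and 33.3% in Mettl3-KO and 45.0% in WT, a ratio of 0.802, the highest of the 8. The ratios of the other 6 lay between 0.669 and 0.740. A share also depends on how many uridines the sequenced stretch of a gene holds, so shares are better compared between libraries than between genes.

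**Figure D3:**
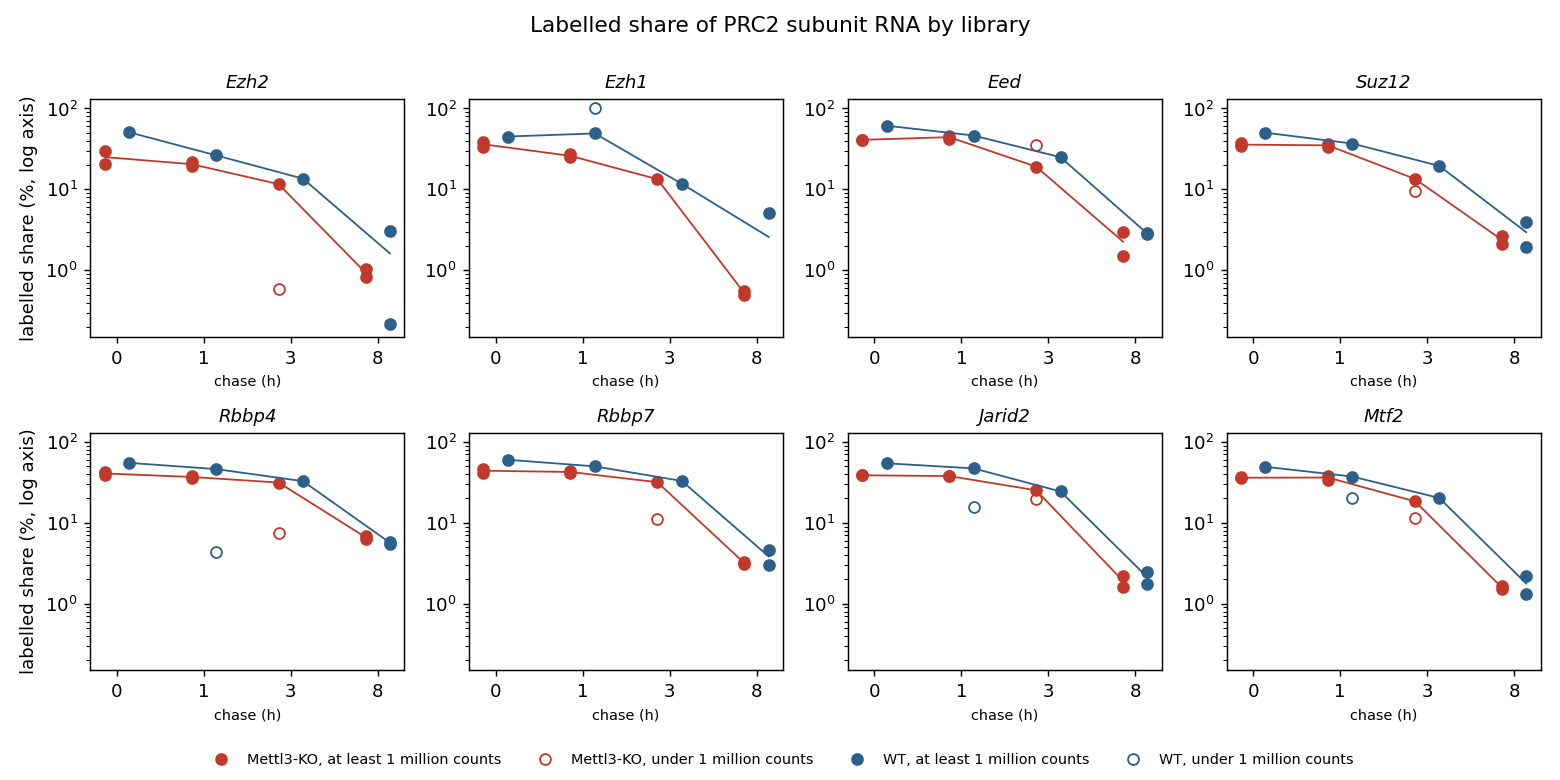
Labelled share of each subunit, conversion counts over total counts in percent on a log axis, by chase time in hours, with Mettl3-KO in red at the left and WT in blue at the right of each time. Points are libraries, hollow for the 2 shallow libraries, lines join means of the deeper libraries, and shares of 0 are not drawn. At 8 h Ezh2 in WT spans 0.217% to 3.02%, while Rbbp4 keeps 5.50% to 6.88% in every library.

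Label was lost from all 8 subunits in both genotypes. The edgeR slopes over 14 libraries were below 0 with an adjusted p under 0.05 for 8 of 8 members in Mettl3-KO, beside 88.1% of genes, and for 8 of 8 in WT, beside 91.1%. Fitted times to 50% loss of label in Mettl3-KO were 1.19 h for Ezh1, 1.60 h for Ezh2 and 1.61 h for Jarid2 and Mtf2. They were 1.87 h for Suz12, 2.04 h for Eed, 2.27 h for Rbbp7 and 3.60 h for Rbbp4. The median slope of all genes gave 2.12 h. In WT the times lay closer together, between 1.75 h for Ezh1 and Mtf2 and 2.47 h for Rbbp4, with 1.81 h at the median. The slopes are relative to total RNA. Scaling to the conversion counts of each library instead removes, by construction, the loss that all genes share. With that scaling 3 members (Ezh1, Jarid2 and Mtf2) kept a called loss in Mettl3-KO and 0 in WT. Beside them, 2609 of 12678 genes had a called slope of either sign in Mettl3-KO and 904 in WT. Rbbp4 had slopes of 0.17 in Mettl3-KO (edgeR adjusted p = 0.0301) and 0.11 in WT (edgeR adjusted p = 0.277). These times carry no correction for cell growth and assume a constant rate, which several members did not show. From 0 to 1 h in Mettl3-KO, mean shares went from 38.7% to 37.8% for Jarid2 and from 36.1% to 36.3% for Mtf2. Suz12 went from 35.75% to 35.0% and Eed from 40.9% to 44.2%, while Ezh2 fell from 25.1% to 20.5% and Ezh1 from 36.1% to 26.0%. In deeper WT libraries Ezh2 went from 50.8% to 26.3% and Ezh1 from 45.0% to 49.1%. Jarid2 had 25.2% in the deeper Mettl3-KO library at 3 h.

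In Mettl3-KO, 97% of tested genes lost label more slowly than Ezh1 and 82% more slowly than Ezh2, while 17.4% were slower than Rbbp4. Its slope per hour was -0.84 (SE 0.12) for Ezh1 and -0.28 (SE 0.08) for Rbbp4. In WT 53.9% of genes were slower than Ezh1 and 20.6% slower than Rbbp4. Rbbp4 thus had the slowest loss among the 8 in both genotypes.

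At 8 h the labelled share of Rbbp4 was 6.40% and 6.88% in Mettl3-KO and 5.50% and 5.85% in WT, above every other member in each of these 4 libraries. Ezh2 had 0.828% and 1.04% in Mettl3-KO and 3.02% and 0.217% in WT, and Ezh1 had 0.498% and 0.548% in Mettl3-KO and 5.17% and 0% in WT. The WT replicates differed more than 10 times for Ezh2, with 82 of 2717 counts labelled in replicate 1 and 3 of 1383 in replicate 2. For Ezh1 they rest on 6 of 116 and 0 of 73 counts.

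**Figure D4:**
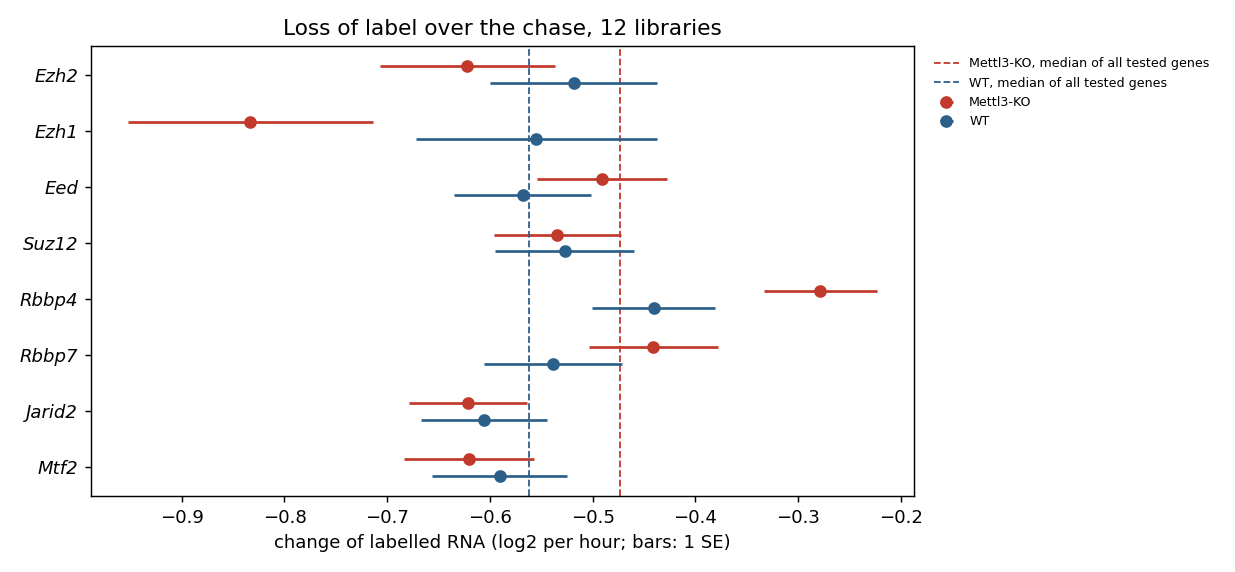
Change of labelled RNA per hour on the log2 scale for each subunit, with bars of 1 SE, in Mettl3-KO (red, upper) and WT (blue, lower) from the edgeR fit over the 12 deeper libraries. Dashed lines give the median slope of all tested genes, at -0.47 in Mettl3-KO and -0.56 in WT. Ezh1 lies at -0.83 and Rbbp4 at -0.28 in Mettl3-KO, on either side of the median.

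No subunit lost label at a rate that differed between genotypes past the threshold. For the loss rate difference edgeR called 0 of 8 members over 14 libraries, beside 2.36% of genes and with 0 members at an unadjusted p under 0.05. Over the deeper libraries it called 0 of 8, beside 5.35% of genes, with Rbbp4 the 1 member whose unadjusted p was under 0.05. No member was called by DESeq2 over 14 libraries. The median difference of all genes over 14 libraries was 0.09 per hour, slower in Mettl3-KO. Rbbp4 had 0.13 (SE 0.11, edgeR adjusted p = 0.556), Rbbp7 0.07 (SE 0.11, edgeR adjusted p = 0.791) and Eed 0.05 (SE 0.11, edgeR adjusted p = 0.858). The other 5 had differences below 0, and Ezh1 had the lowest, -0.27 (SE 0.17, edgeR adjusted p = 0.428).

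For Ezh2 the difference was -0.12 per hour (SE 0.12, edgeR adjusted p = 0.641) and became 0.17 without WT 8 h replicate 1, so its sign rests on that library. Suz12 at -0.03 and Mtf2 at -0.05 also became positive without it, at 0.05 and 0.03. With the gene's own total as offset, 0 members were called, beside 3.18% of genes over 14 libraries and 5.62% over 12.

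The authors' deposited table of half-lives, which names no unit, lists 4 of the 8 members among 6985 genes. In the authors' deposited table Ezh2 has 2.22 in Mettl3-KO and 1.503 in WT, Jarid2 2.36 in Mettl3-KO and 1.86 in WT, and Mtf2 2.35 in Mettl3-KO and 1.62 in WT, each longer in Mettl3-KO. Ezh1 has 1.51 in Mettl3-KO and 1.66 in WT there, while the medians of the authors' deposited table are 2.52 in Mettl3-KO and 1.70 in WT. For Ezh2, Jarid2 and Mtf2 the edgeR slopes over 14 libraries run the other way in sign, and their differences did not pass the threshold. Their sign depended on the method: limma on the authors' normalized log2 values gave 0.0252 for Ezh2 and 0.03698 for Mtf2, and the gene-total offset gave 0.02755 for Jarid2 and 0.008023 for Mtf2, each slower in Mettl3-KO.

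Among the other proteins that join PRC2, all 6 genes of the list passed the filter on low counts. Over 14 libraries 1 was called, higher in Mettl3-KO, beside 12.1% of all genes. Ezhip, which in mouse and human binds PRC2 and inhibits its methyltransferase, had 7.22 and 1.75 CPM at 0 h, 7.05 and 2.17 CPM at 1 h, 4.96 CPM at 3 h, and 4.47 and 5.29 CPM at 8 h in deeper Mettl3-KO libraries. In deeper WT libraries it had 0.485 CPM at 0 h, 0.148 CPM at 1 h, 0.928 CPM at 3 h, and 0.205 and 0.158 CPM at 8 h. Every deeper Mettl3-KO library was above every deeper WT library, with 28 to 160 counts in Mettl3-KO and 1 to 10 counts in WT. Ezhip passed the filter on low counts through its Mettl3-KO libraries, with only 1 WT library at 10 counts, so a gene kept in this way had to differ. Ezhip is the 1 gene of this list counted as called, and no fold is given. Phf19 (-0.35), Phf1 (0.03), Aebp2 (0.15) and Epop (0.36), which join PRC2 as accessory subunits, had log2 differences that were not called over 14 libraries. Nor was Lcor (0.06), whose locus encodes both the corepressor LCOR and, as an alternative product, the PRC2 accessory protein PALI1, which a count per gene symbol cannot tell apart.

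PRC1, the complex that ubiquitinates histone H2A and compacts chromatin at Polycomb sites, had 6 of 24 tested genes higher in total RNA over 14 libraries, beside 12.1% of all genes, and 4 lower, beside 9.99%, with a median of 0.13, against 0.05 over all genes. Rnf2, a catalytic E3 ligase of PRC1, fell by 1.05 on the log2 scale (SE 0.23, edgeR adjusted p = 0.00453), with a median of 136 CPM in deeper Mettl3-KO libraries and of 278 CPM in WT. Cbx6 fell by 0.84, while Phc1 rose by 0.92 and Scmh1 by 1.44, each with an edgeR adjusted p under 0.05. Over the deeper libraries 8 were higher and 6 lower, beside 21.9% and 19.3% of all genes.

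Of 6 genes for lysine 27 demethylases and the PR-DUB complex, which remove marks of PRC2 and PRC1, 1 rose over 14 libraries. Beside it, 12.1% of all genes were called higher, so the count is near the background. Asxl1, a PR-DUB subunit, rose by 0.83 (SE 0.20, edgeR adjusted p = 0.00772). Over the deeper libraries 1 of the 6 was higher and 2 were lower, beside 21.9% and 19.3% of all genes. The lower ones were the demethylase genes Kdm6b and Kdm6a, which fell by 0.70 and 0.57.

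Among 21 other subunits of complexes that hold Rbbp4 or Rbbp7 (NuRD, Sin3, CAF-1 and NURF), 1 rose and 4 fell over 14 libraries, beside 12.1% and 9.99% of all genes, with a median of -0.31. Over the deeper libraries 2 rose and 8 fell, beside 21.9% and 19.3%, with a median of -0.35. Hdac1, a histone deacetylase, fell by 1.44 (SE 0.28, edgeR adjusted p = 0.00222), and its median was 50.6 CPM in deeper Mettl3-KO libraries and 158 CPM in WT. The NuRD subunit Mta2 fell by 1.32, the chromatin remodeler Smarca1 by 1.16 and the Sin3 subunit Sap30 by 1.28. Labelled RNA of 8 of the 21 fell at 0 h over 14 libraries, beside 6.52% of all genes called lower, with a median of -1.03, against -0.37 over all genes. With the gene's own total as offset, 0 of the 21 were called, beside 0.00789% of all genes. The median was then -0.59, against -0.40 over all genes.

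Of 48 developmental genes described as PRC2 targets in embryonic stem cells, 32 passed the filter on low counts, and 6 rose and 5 fell over 14 libraries, beside 12.1% and 9.99% of all genes, with a median of -0.11 that does not depend on the size given to Neurog1 below. Over the deeper libraries 30 passed it, 8 rose and 6 fell, beside 21.9% and 19.3%, and the median was -0.56. Olig2, a neural factor, had a median of 47.0 CPM in deeper Mettl3-KO libraries and of 0.186 CPM in WT. With 1 to 5 counts in each WT library, Olig2 passed the filter only through Mettl3-KO, so a gene kept in this way had to differ. It is counted among the 6 that rose, and no fold is given. Sox1, a neural progenitor factor, fell by 2.56, and the endoderm factor Gata4 fell by 3.55. Gata4 had only 3 to 16 counts in deeper Mettl3-KO libraries, against 34 to 64 in deeper WT ones. Its fold thus rests on a Mettl3-KO level near the floor. Neurog1 had between 2.29 and 5.44 CPM in deeper Mettl3-KO libraries and no count in any WT library, so no fold is given. Genes that passed the filter only through the genotype where they are high had to differ. The list also shares members with the neural and primitive endoderm markers given above, whose sums differ between genotypes.

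**Figure D5:**
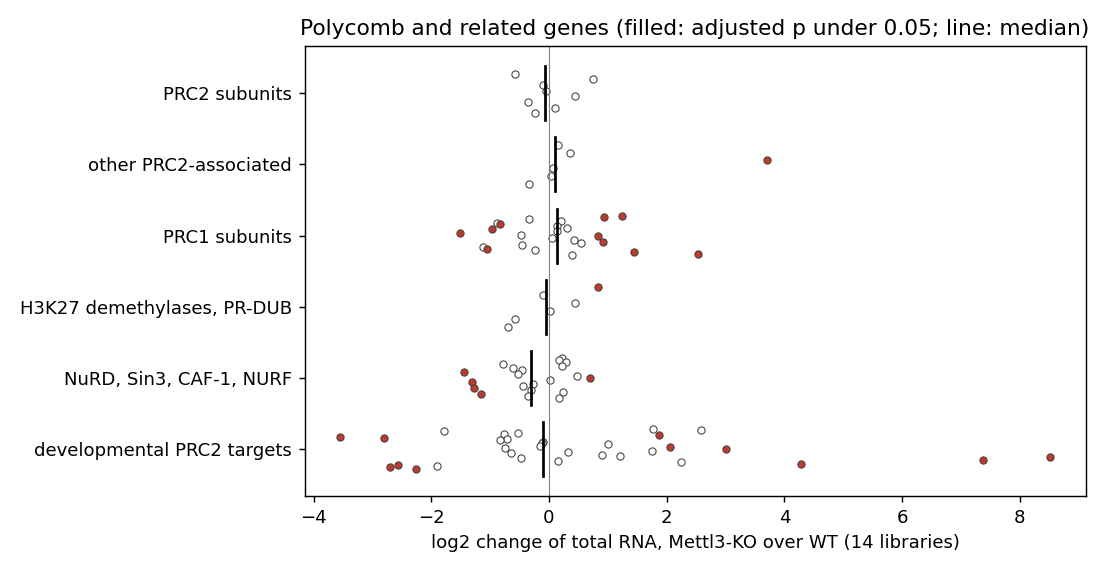
Log2 change of total RNA in Mettl3-KO over WT from the edgeR fit over 14 libraries for the tested genes of 6 lists, one point per gene, filled in red where the adjusted p was under 0.05, with a black line at each list's median. The 8 PRC2 subunits have no filled point. Ezhip, which passed the filter on low counts through Mettl3-KO, is the only filled point among the other PRC2-associated genes. The developmental genes start at -3.55 with Gata4, whose Mettl3-KO counts are near the floor. The rightmost point there is Neurog1, whose fitted value is no measured fold because WT has no count.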

How the data were processed

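The authors deposited raw total counts and raw conversion counts per gene symbol, a table of log2 values they normalized and a table of half-life scores without a unit. Per the submitters' processing notes, the build was mm10 and the tools included edgeR 3.32.1, featureCounts from Subread 1.5.0 and Trim Galore 0.4.0. The aligner, the conversion caller and what 1 conversion count stands for (a read or a converted base) were not given in the sources used here. For 152 genes, none of them a member, conversions exceed the total in a library. An entry without a gene name, at most 0.0312% of counts, was left out.

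Total counts were tested with edgeR 4.0.16 (quasi-likelihood, robust, TMM; R 4.3.3) on genes with at least 10 counts in 6 libraries, with chase time as a factor and genotype, or with genotype, hours and their interaction. Conversion counts (at least 10 in 3 libraries) were tested with genotype, hours and their interaction on the TMM-scaled total of the same library. All 14 libraries, or the 12 with at least 1e+06 counts, entered each fit together: WT has a lone library at 0 h and at 3 h, which is assumed to vary like the others. Benjamini-Hochberg adjustment ran over all tested genes, with a threshold of 0.05. SE is the log2 effect over the square root of F. DESeq2 1.42.0 and limma 3.58.1 served as alternatives, and the tests were tried on simulated data. Likeness is Pearson r of log2 CPM (prior count 2) among genes of at least 10 CPM on average. No library pair of a group agreed within sampling noise.

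Members are named in every comparison. From other lists, up to 4 called genes with the smallest p may be named, with all listed PRC2-associated genes, and the 3 genes most like each member. Kdm6a, Kdm6b and Neurog1 values are given by that rule. The members and lists were chosen with earlier results of these data known. Intervals are 95% Wilson intervals for counting error only. Gene positions and sequences are from RefSeq, GRCm38.p6.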

Additional observations from a re-analysis of the deposited data

Results flagged for a closer look

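Of 16 sets of libraries, 1 per member and genotype, 3 held a library far from the rest by Dixon's test, which chance does in about 1 of 20 sets. Ezh2 stood at 494.7 CPM in the shallow Mettl3-KO 3 h replicate 2, with the next Mettl3-KO library at 131 CPM, and the cause was not tested. Suz12 stood at 64.1 CPM in the shallow WT 1 h replicate 2, which is 3 counts, with the next WT library at 229 CPM. Rbbp4 stood at 568.2 CPM in WT 0 h replicate 1, with the next WT library at 491 CPM, and WT has no other library at 0 h.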

How the results depend on the processing

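Over 14 libraries edgeR called 3231 genes for total RNA. Of the values for members other than those that leave out 1 library each, 323 kept their direction and side of the threshold under the alternatives, 24 reversed, 5 passed the threshold newly, and 8 kept their direction but lost the call, all 8 under scaling to the conversion counts. Of those that reversed, the losses of Ezh2, Suz12, Rbbp4 and Rbbp7 in WT also lost their call under that scaling. Without the 2 shallow libraries the genes called were 6001 for total RNA, 80 for its genotype difference in slope (0 over 14 libraries), 638 for its slope in Mettl3-KO (0) and 678 for the loss rate difference (299). Slopes of total RNA that reversed there were 0.0003476 for Suz12 (Mettl3-KO minus WT), and -0.003447, -0.01801 and -0.01132 for Eed, Suz12 and Rbbp7 in WT. With no filter on low counts 2070 genes were called for total RNA. DESeq2 called 201 genes for the total RNA slope difference and 688 for the loss rate, and limma on the authors' log2 values called 0 for the loss rate, with 0.0252 for Ezh2 and 0.03698 for Mtf2, both reversed. Scaled to conversion counts, 904 genes had a called slope of either sign in WT and 2609 in Mettl3-KO. Reversed slopes there were 0.004343 for Ezh2, 0.01072 for Suz12, 0.1102 for Rbbp4 and 0.001948 for Rbbp7 in WT, 0.1652 for Rbbp4 in Mettl3-KO, and loss rate differences of -0.01643 for Eed and -0.00337 for Rbbp7, and labelled RNA at 0 h became 0.08008 for Rbbp7 and 0.3412 for Jarid2. With the gene total as offset 1 gene was called for labelled RNA at 0 h (994 without it), with -0.2903 for Ezh1 and -0.2376 for Mtf2 and loss rate differences of 0.02755 for Jarid2 and 0.008023 for Mtf2. The same offset over 12 libraries, added after seeing the data like the fits that left out 1 of the 12 deeper libraries, called 9 and 712 genes, with -0.2634 and -0.2795 for Ezh1 and Mtf2 at 0 h and 0.04433 and 0.01615 for Jarid2 and Mtf2 in the loss rate. Pairing by replicate number was checked by correlating the deviations of replicate 1 from replicate 2 between groups. Of 15 pairs of groups, 3 had a correlation over 0.1 (range -0.115 to 0.364). Because groups with a shallow library entered the check, it does not settle whether the numbers pair samples, and the main fits did not pair them. A replicate block gave 609 genes for labelled RNA at 0 h and 0.128 for Jarid2 there, 3106 genes for total RNA, and changed no call on a member. Leaving out each of the 14 libraries in turn gave 2236 to 5281 genes for total RNA, 0 to 17 for its slope difference, 0 to 150 for its slope in Mettl3-KO, 389 to 1227 for labelled RNA at 0 h and 45 to 600 for the loss rate. The members that changed sign there ranged, for total RNA, from -0.3935 to 0.06303 (Ezh2) and -0.2151 to 0.147 (Jarid2); for its slope difference, from -0.06997 to 0.01003 (Ezh1), -0.0284 to 0.09577 (Eed) and -0.05772 to 0.004525 (Suz12). For the total RNA slope in WT they ranged from -0.03262 to 0.09121 (Eed), -0.01899 to 0.04096 (Suz12), -0.02367 to 0.0006934 (Rbbp4), -0.05107 to 0.04116 (Rbbp7) and -0.004652 to 0.0583 (Mtf2), and in Mettl3-KO from -0.06961 to 0.0653 (Ezh2). For labelled RNA at 0 h Jarid2 ranged from -0.4412 to 0.3349, and for the loss rate Ezh2 from -0.2167 to 0.1746, Suz12 from -0.09988 to 0.04717 and Mtf2 from -0.1151 to 0.0341. Where no cause is given, the cause was not tested. Depth limits Ezh1 most, with 55 to 696 total counts and 0 to 188 conversions in the deeper libraries.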
